A study of Mus musculus with 8 samples.

Results

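The 10 genes described here (Prdm1, Irf4, Xbp1, Mzb1, Derl3, Fkbp11, Eaf2, Creld2, Tnfrsf17 and Sdc1) were chosen by name as the plasma cell program. They were chosen with earlier results of these data known. All 10 were among the 45706 genes of the RNA files. Of these, 9 passed the low-count filter and were tested among 16258 genes, and Tnfrsf17 did not. The libraries came from LSK cells (lineage-negative cells with Sca1 and Kit at the surface), sorted from bone marrow of C57BL/6 mice that were either WT (wild type) or carried a Hira conditional KO (knockout). Hira encodes a histone chaperone for the variant H3.3. The driver of the deletion and the age of the mice are not given in the sources used here. Each assay, RNA-seq and ATAC-seq (which maps open chromatin with a transposase), had 4 libraries, 2 per label. The labels do not say whether the libraries of a group came from separate mice, so p-values measure the spread between these libraries only.

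Plasma cells are the antibody-secreting end stage of the B lineage. Their identity rests on a small set of transcription factors: Irf4 and Prdm1 (encoding Blimp-1) set up the program and silence genes of the B cell, and Xbp1, whose mRNA is spliced by the endoplasmic reticulum (ER) stress sensor Ire1, expands the ER and its folding machinery. The stage is recognised at the surface by Sdc1 (syndecan-1, CD138) and Tnfrsf17 (the survival receptor BCMA), and inside the ER by chaperones and quality-control proteins such as Mzb1, Fkbp11, Creld2 and Derl3. Haematopoietic stem and progenitor cells neither secrete antibody nor carry lineage markers, so most of these genes are known for low levels there.

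The RNA libraries held 16.6 M to 19.8 M expected counts, of which mitochondrially encoded genes took 40.8% to 53.1%. Hira itself was not lower in labelled Hira KO, at 24.4 and 23.3 CPM (counts relative to the scaled library total) against 16.5 and 17.2 CPM in labelled WT, and all deposited file names carry the opposite genotype from the titles. Groups are therefore called by their labels, and every direction depends on them. Labelled WT replicate 2 had 906 counts of the Y-linked gene Ddx3y against 1 or 2 in the other libraries. Its counts of Xist, the RNA of the inactive X chromosome, were 1470, against 169234 to 232764 in the other libraries. The labelled WT RNA libraries thus differed in the sex of their cells. In labelled Hira KO replicate 2, AY036118 reached only 6.01 counts, while the other libraries ranged between 86174 and 108841. The gate genes were present in all 4 libraries: Kit stood at 70.1 to 96.5 TPM (a level per transcript length, relative to the library) and Ly6a, which encodes Sca1, at 15.2 to 53.1 TPM.

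The plasma cell genes did not move as a block. In the fit over all genes, 4 members stood higher in labelled Hira KO at an unadjusted p below 0.05 (Prdm1, Irf4, Eaf2 and Derl3) and 3 stood lower (Fkbp11, Creld2 and Mzb1), while Xbp1 and Sdc1 did not pass even that mark. None of the 9 passed the adjusted threshold of 0.05 in edgeR's quasi-likelihood test, where the lowest adjusted p among them was 0.0649 (Fkbp11), against 1.80% of all tested genes called (1.32% higher and 0.480% lower). The 7 members with an unadjusted p below 0.05 compare with 22.8% of all tested genes, 12.2% higher and 10.6% lower. Groups did not overlap in CPM for 8 of the 9, against 56.1% of all tested genes. An absolute log2 fold change of at least 1 was found for 6 of the 9, against 17.0%. Because the members were chosen with earlier results of these data known, these shares are background and no test of the set. DESeq2 called Prdm1, Irf4 and Eaf2 higher and Fkbp11 and Creld2 lower, where it called 9.21% of all tested genes. limma on log2(TPM + 1) called Fkbp11 alone, where it called 4.02%, and so did limma on log2(TPM + 0.1), at 3.83%. Without a low-count filter edgeR called the same 5 genes as DESeq2, at 7.48%. The calls turned on single libraries. Without labelled Hira KO replicate 1 edgeR called Irf4 and Eaf2 higher and Fkbp11 and Creld2 lower, among 20.2% of all genes, and without labelled Hira KO replicate 2 it called Prdm1 and Irf4 higher, among 6.97%. Without labelled WT replicate 1 or 2 it called no member and only 4 (0.0227%) or 2 (0.0114%) genes in all, so at most that many of the calls in the gene lists described further on were kept.

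**Figure D1:**
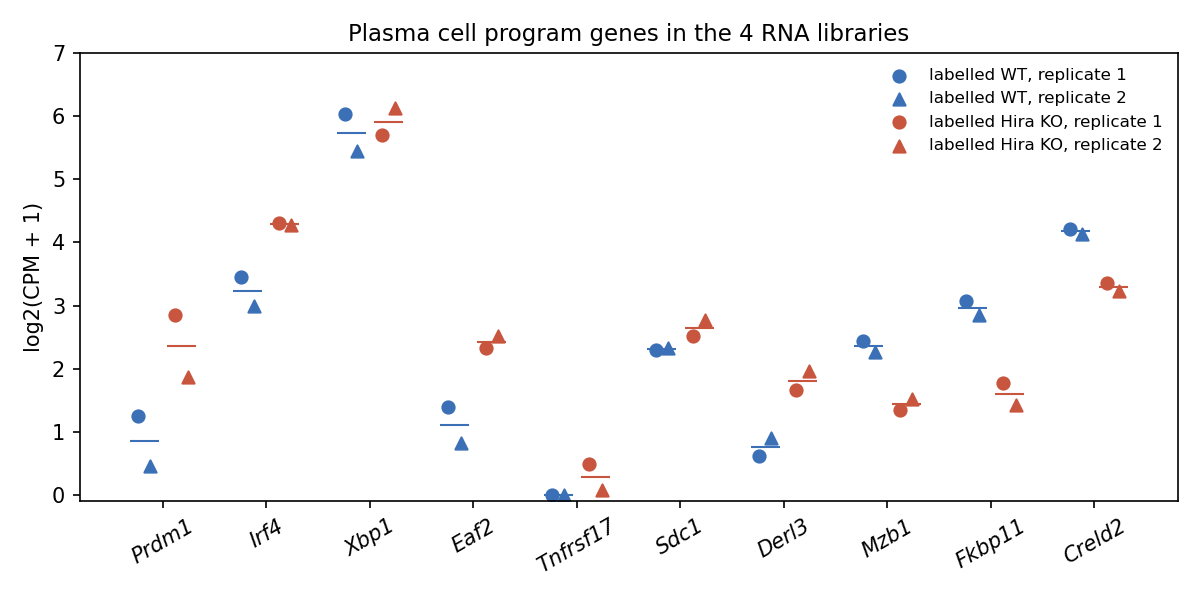
Level of each gene in the 4 RNA libraries as log2(CPM + 1); points are libraries (circles replicate 1, triangles replicate 2) and short lines the mean of a group. Prdm1, Irf4, Eaf2 and Derl3 sit higher in both labelled Hira KO libraries, Mzb1, Fkbp11 and Creld2 lower, and the groups of Xbp1 overlap.

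Compared per transcript length, Xbp1 was the most abundant of the 10 and Tnfrsf17 the least. Xbp1 ranged from 26.3 to 50.1 TPM over the 4 libraries. Creld2 followed at 6.89 to 20.2 TPM and Fkbp11 at 3.06 to 19.1 TPM. Mzb1 ranged from 2.53 to 8.54 TPM and Irf4 from 1.54 to 5.33 TPM. Sdc1 (1.37 to 2.57 TPM), Eaf2 (0.41 to 3.17 TPM) and Derl3 (0.62 to 2.46 TPM) overlapped with each other. Prdm1 stood at 0.08 to 1.56 TPM and Tnfrsf17 at 0 to 0.87 TPM. From Creld2 downward, each gene's range overlapped that of the next, and only Xbp1 stood clear of its neighbour in the order. By mean TPM, Xbp1 lay at percentile 95 of the genes with any TPM above 0 and Prdm1 at percentile 45.5, so a sum over the set follows Xbp1 and the ER genes far more than Prdm1 or Irf4. The summed TPM of the 10 genes was 105 and 62.9 for the labelled WT pair, against 72.5 and 67.5 for the labelled Hira KO pair, with overlapping groups.

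Among the transcription factors, Prdm1 (chr10:44437174-44528558, GRCm38), which represses the B cell program, was counted 26 and 7 times in the labelled WT pair, against 120 and 44 times in the labelled Hira KO pair. That is 1.38 and 0.383 CPM against 6.22 and 2.64 CPM, so the groups did not overlap, but the libraries of each group differed by more than 2-fold. The log2 fold change was 2.32 (SE 0.71, 95% interval 0.64 to 4.01, n = 2 and 2; edgeR adjusted p = 0.124). Leaving out labelled WT replicate 1 gave 3.50 and leaving out its replicate 2 gave 1.67. Leaving out labelled Hira KO replicate 1 gave 1.56, and dropping replicate 2 gave 2.80, the one case of these 4 in which edgeR's adjusted p passed the threshold (0.0344).

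Irf4 (chr13:30749233-30766981) encodes the factor that acts before and together with Blimp-1 in plasma cells, and that also serves dendritic cells and activated lymphocytes. It stood at 10 and 6.95 CPM in the labelled WT pair, against 18.9 and 18.5 CPM in the labelled Hira KO pair. Both labelled Hira KO libraries lay above both labelled WT libraries, and they differed from each other by less than the labelled WT libraries did. The log2 fold change was 1.14 (SE 0.26, 95% interval 0.53 to 1.75, n = 2 and 2; edgeR adjusted p = 0.0685), and it was 0.89 to 1.41 with any single library left out.

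Xbp1 (chr11:5520641-5525993), the ER stress factor, stood at 64.4 and 42.6 CPM in the labelled WT pair, against 50.9 and 69.1 CPM in the labelled Hira KO pair. The groups overlapped. Its log2 fold change was 0.17 (SE 0.25, 95% interval -0.42 to 0.75; edgeR adjusted p = 0.742), an interval that leaves out a doubling and a halving of the level, and it changed sign to -0.12 without labelled WT replicate 2 and to -0.08 without labelled Hira KO replicate 2. A gene count does not tell the spliced from the unspliced Xbp1 mRNA, so it says nothing of the activity of the factor.

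Eaf2 (chr16:36792884-36875068), which encodes a partner of the elongation factor Ell and is induced in plasma cells, stood at 1.64 and 0.766 CPM in the labelled WT pair, against 4.04 and 4.75 CPM in the labelled Hira KO pair. The groups did not overlap. The log2 fold change was 1.86 (SE 0.51, 95% interval 0.67 to 3.05; edgeR adjusted p = 0.0956), between 1.40 and 2.5 with 1 library left out. The annotated bodies of Eaf2 and Iqcb1 overlap, and no source says that strand was kept, so reads of the pair cannot be told apart with certainty.

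**Figure D2:**
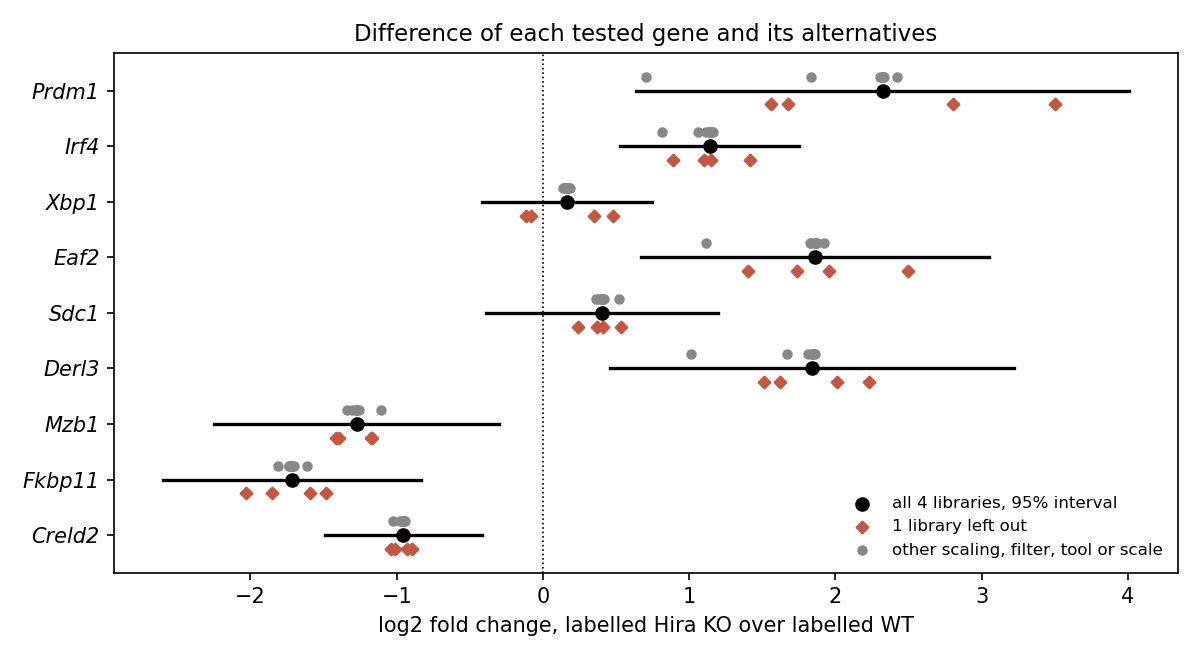
log2 fold change (labelled Hira KO over labelled WT) of the 9 tested genes in edgeR with the 95% interval (black), with 1 library left out (diamonds) and under other scalings, filters, tools or scales (grey). Of the 9 genes, Xbp1 is the one whose sign changed, in 2 of the leave-one-out fits, and the interval of Sdc1 also holds 0.

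The surface genes gave little signal. Sdc1 (chr12:8771396-8793716), the heparan sulfate proteoglycan that marks plasma cells and also epithelia, stood at 3.92 and 4.05 CPM in the labelled WT pair, against 4.71 and 5.83 CPM in the labelled Hira KO pair. The groups did not overlap, but its value of 0.40 (log2 fold change, SE 0.34, 95% interval -0.39 to 1.19; edgeR adjusted p = 0.519) did not differ from 0 beyond its error. Tnfrsf17 (chr16:11313232-11320074), the receptor through which long-lived plasma cells receive survival signals, had 0 counts in either labelled WT library and 8 and 1 counts in labelled Hira KO. A count of 0 allows up to 3 counts, or 0.159 and 0.164 CPM in those libraries, so 1 count in labelled Hira KO replicate 2 cannot be distinguished from them and the 8 counts rest on labelled Hira KO replicate 1 alone.

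The ER members went in both directions. Derl3 (chr10:75893398-75895941), a component of ER-associated degradation, stood at 0.529 and 0.875 CPM in the labelled WT pair, against 2.18 and 2.89 CPM in the labelled Hira KO pair, from 10 and 16 counts against 42 and 48. The groups did not overlap, with log2 fold change 1.84 (SE 0.59, 95% interval 0.46 to 3.22; edgeR adjusted p = 0.129). Fkbp11 (chr15:98724368-98728198), a peptidyl-prolyl isomerase of the ER, stood at 7.41 and 6.18 CPM in the labelled WT pair, against 2.44 and 1.68 CPM in the labelled Hira KO pair. It had the lowest p of the 9 tested genes, with log2 fold change -1.72 (SE 0.38, 95% interval -2.60 to -0.83; edgeR adjusted p = 0.0649), and lay between -2.03 and -1.48 with 1 library left out.

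Creld2 (chr15:88819646-88826681), an ER stress-inducible protein with disulfide isomerase activity, had the smallest SE of the 9. It stood at 17.6 and 16.6 CPM in the labelled WT pair, against 9.22 and 8.41 CPM in the labelled Hira KO pair, without overlap. The log2 fold change was -0.95 (SE 0.23, 95% interval -1.49 to -0.42; edgeR adjusted p = 0.0741), between -1.04 and -0.90 with 1 library left out. Mzb1, the ER co-chaperone that assists immunoglobulin assembly in marginal zone B cells and plasma cells and is also expressed by plasmacytoid dendritic cells, stood at 4.45 and 3.83 CPM in the labelled WT pair, against 1.55 and 1.86 CPM in the labelled Hira KO pair. The groups did not overlap, with log2 fold change -1.27 (SE 0.42, 95% interval -2.25 to -0.30; edgeR adjusted p = 0.133). For Derl3 and Mzb1 no alternative fit passed the adjusted threshold.

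The promoters of 2 ER members that differ in direction share a sequence feature. The ER stress element, spelled CCAAT and CCACG with any 9 bases between them and bound by the unfolded protein response factors, was searched on both strands of the 300-base windows that RefSeq gives around gene starts (GRCm38.p6). It was found in 39 of 32851 windows, 0.119%, and in 2 of the 12 windows of the members, those of Derl3 and Creld2. Each match lies on the strand opposite to the gene, its first base 156 bases before the start of Derl3 and 126 before the start of Creld2. The 250 bases before each start are shown 5′ to 3′ in the direction of the gene, with the match in capitals (Derl3 on the plus strand at chr10:75893148-75893397 and Creld2 on the plus strand at chr15:88819396-88819645):
Derl3: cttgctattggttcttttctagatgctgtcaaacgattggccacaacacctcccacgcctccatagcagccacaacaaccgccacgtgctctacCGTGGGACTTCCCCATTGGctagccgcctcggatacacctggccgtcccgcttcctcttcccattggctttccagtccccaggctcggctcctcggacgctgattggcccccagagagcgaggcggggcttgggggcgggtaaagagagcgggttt
Creld2: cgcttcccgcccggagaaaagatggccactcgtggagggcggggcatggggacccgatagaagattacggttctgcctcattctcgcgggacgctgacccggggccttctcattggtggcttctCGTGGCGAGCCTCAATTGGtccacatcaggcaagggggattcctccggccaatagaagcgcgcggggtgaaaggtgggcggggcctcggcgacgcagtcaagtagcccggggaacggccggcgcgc
Derl3 was higher and Creld2 lower in labelled Hira KO by point estimate, so the shared letters did not go with a shared direction. The unfolded protein response element core TGACGTGG (0.676% of all windows), the ETS-IRF element (GGAA and GAAA with any 2 bases between them, 2.71%) and the Blimp-1 core AGNGAAAG (8.63%) were in no member window, and the interferon-stimulated element core (GAAA and GAAA with any 2 bases between them, 3.44%) was in that of Tnfrsf17. These counts describe letters in a window and no binding was measured.

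Among other genes known for plasma cells, the immunoglobulin constant genes stood much higher in labelled Hira KO. A further list went in both directions, with a share at an unadjusted p below 0.05 near that of all tested genes. Of 12 immunoglobulin constant genes, 10 were tested, all 10 had a log2 fold change above 0, and 8 rose (median 3.07, against 0.01 for all tested genes). Igkc, the kappa light chain constant gene, stood at 97.1 and 97.2 CPM in the labelled WT pair, against 1297 and 811 CPM in the labelled Hira KO pair (log2 fold change 3.44, SE 0.25, edgeR adjusted p = 0.00798). Ighm, the mu heavy chain gene, stood at 429 and 410 CPM against 3027 and 1553 CPM (2.45, adjusted p = 0.0337). The switched isotype gene Ighg2c had 1 count in each labelled WT library and 412 and 360 in labelled Hira KO. Igha, Ighg2b, Iglc1 and Iglc2 rose as well, with log2 fold changes of 2.68, 3.46, 4.75 and 2.69, and Ighg1 had 1 and 3 counts against 135 and 101. Near-identical constant genes, such as Iglc2 and Iglc3, can share reads.

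Of 24 further plasma cell genes, 22 were tested and 2 rose, both tied to immunoglobulin. Jchain, which joins IgM and IgA into polymers, stood at 13.1 and 7.17 CPM in the labelled WT pair, against 192 and 125 CPM in the labelled Hira KO pair (log2 fold change 3.97, SE 0.37; adjusted p = 0.0204 in edgeR). The lambda variable gene Iglv1 also rose (2.91, adjusted p = 0.0470). The list's median was 0.12 and none fell. Of the 22, 12 lay above 0, against 8279 of all 16258 tested genes. At an unadjusted p below 0.05, 4 stood higher and 1 lower, together 22.7%, near the 22.8% of all tested genes.

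**Figure D3:**
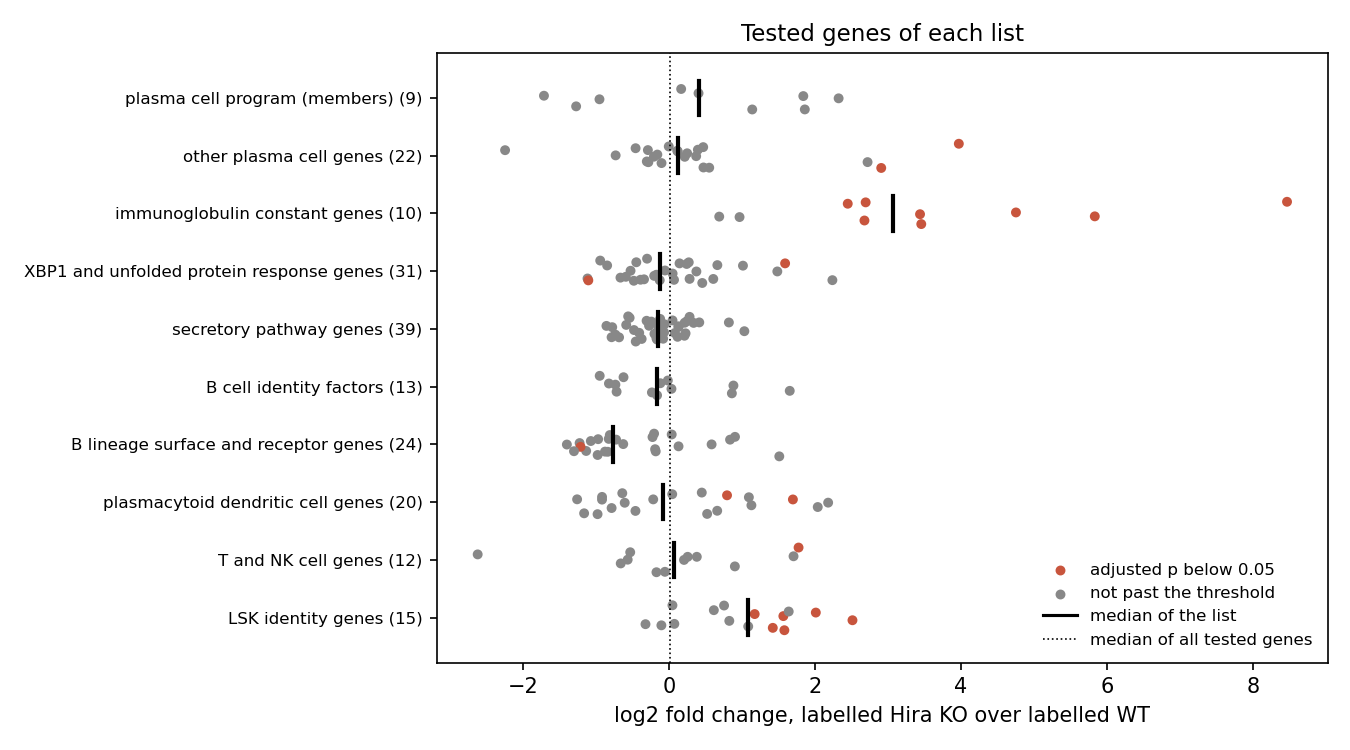
log2 fold change (labelled Hira KO over labelled WT) of every tested gene of each list, number tested in brackets; coloured points passed edgeR's adjusted threshold, thick lines are list medians and the dotted line the median of all tested genes. Immunoglobulin constant genes lie to the right with a median of 3.07, while the plasma cell members spread from -1.72 to 2.32 with none past the threshold.

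Genes of the ER stress response and of the secretory pathway, which plasma cells use heavily, had 17 of 31 and 25 of 39 tested genes below 0, against 7979 of all 16258. Of the 31 unfolded protein response genes, 1 rose and 1 fell, with a median log2 fold change of -0.13, and 5 stood higher and 10 lower at an unadjusted p below 0.05. The ER chaperone gene Hyou1 fell from 166 and 150 CPM to 73.6 and 73.3 CPM (-1.11, SE 0.14, edgeR adjusted p = 0.0297), and the ER DnaJ gene Dnajb9 rose from 16.5 and 12.9 to 33.6 and 54.9 CPM (1.59, adjusted p = 0.0462). Ern1, the gene for the sensor Ire1 that splices Xbp1, stood at 59.8 and 44.3 CPM in the labelled WT pair, against 120 and 371 CPM in the labelled Hira KO pair (2.24, SE 0.65, adjusted p = 0.171), with the highest value in labelled Hira KO replicate 2. Hspa5, the ER chaperone BiP, was also highest in that library, at 317 CPM against 110 to 206 CPM in the other 3. Of 39 secretory pathway genes none passed in edgeR, with a median of -0.16. At an unadjusted p below 0.05, 1 stood higher and 9 lower. That mark was passed by 48.4% of the unfolded protein response genes and 25.6% of the secretory pathway genes, against 22.8% of all tested genes. Of all tested genes, 12.2% stood higher and 10.6% lower. The most abundant of the 39 per length were the translocon subunit gene Sec61b (log2 fold change 0.13), the oligosaccharyltransferase gene Rpn2 (-0.74, edgeR adjusted p = 0.0542) and Ssr3 (-0.08).

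Markers of the cells in which these genes are known were compared by level. Of 24 tested B lineage surface and receptor genes, 1 fell, the surrogate light chain gene Igll1 (62.7 and 56.7 to 27.8 and 23.6 CPM, log2 fold change -1.21, edgeR adjusted p = 0.0337). At an unadjusted p below 0.05, 3 stood higher and 11 lower, together 58.3%, against 22.8% of all tested genes. The median was -0.77. The list's summed level was 1734 and 1143 TPM in the labelled WT pair, against 1004 and 751 TPM in the labelled Hira KO pair. All 26 listed genes in the files had reads in at least 1 library and 25 had reads in all 4. None of 13 tested B cell factor genes passed in edgeR, while 1 stood higher and 3 lower at an unadjusted p below 0.05, together 30.8%. Bcl11a (0.03) and Spi1 (-0.12) were close to 0 in log2 fold change, and Pax5, which Blimp-1 represses in plasma cells, stood at 105 and 69.6 CPM against 53.7 and 36.5 CPM (-0.95, adjusted p = 0.106).

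Immunoglobulin constant genes summed to 1006 and 697 TPM in labelled WT and to 9003 and 4246 TPM in labelled Hira KO. In bulk libraries more cells of a type and more RNA per cell cannot be told apart, and the part of plasma cells or other B lineage cells in the levels of Prdm1, Irf4, Eaf2 and Derl3 was not tested. Plasmacytoid dendritic cell genes, listed because Mzb1 and Irf4 are also known there, had 2 of 20 tested genes rise (Runx2 at 0.79 and Tlr7 at 1.70, neither restricted to that cell) and a median of -0.09. At an unadjusted p below 0.05, 6 stood higher and 3 lower, together 45%, against 22.8% of all tested genes, and 10 of the 20 lay above 0. Their defining surface gene Siglech stood at 8.36 and 10.9 CPM against 5.75 and 6.91 CPM (-0.61, adjusted p = 0.266), and their summed level was 357 and 265 TPM against 373 and 256 TPM. Of 12 tested T and NK cell genes only Cd4 passed (1.77, adjusted p = 0.0414), and the list summed to 191 and 130 TPM against 166 and 74.3 TPM. Of 15 genes that identify LSK cells, 6 rose, among them Ly6a, Flt3, Hlf, Meis1 and Hoxa9, and none fell (median 1.08). The part of these cells in the member values was not tested.

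By point estimate the members lay in opposite directions, and their mean profile over the 4 libraries was nearly flat. After centring each gene on its mean log2(CPM + 1), it stood at 0.02 and -0.27 in the labelled WT pair and at 0.14 and 0.12 in the other pair. Among 7946 other genes of at least moderate level, the 5 with the smallest root-mean-square difference from it were Stam2, Dag1, Ccny, Trps1 and Btbd7, with differences of 0.0094 to 0.028 log2 units over 4 libraries. Their log2 fold changes were 0.20 to 0.29, so the average of the set describes none of the 7 members with an unadjusted p below 0.05. None of these 7 passed edgeR's adjusted threshold.

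The ATAC-seq peak lists asked where chromatin at these genes was open. They held 63422 to 92839 peaks per library with no read totals, so the depth behind a missing peak is unknown, and fold enrichments are the authors' caller's values against its own background within each list. Merging peaks that share at least 1 bp gave 59 regions within 10 kb of the bodies of the 10 genes. Of these, 19 were called in all 4 libraries, 3 in the labelled Hira KO pair only and 1 in the labelled WT pair only. Over all 112479 regions the shares were 40.7%, 5.64% and 2.77%. Every member had at least 1 region called in all 4 libraries within that distance. For Mzb1 and Tnfrsf17 the only such region lay outside the gene body, in the neighbouring genes Prob1 and Snx29. The share of all genes with such a region was not counted. Of the 59 regions, 18 reached the body of another protein-coding gene. Labelled Hira KO replicate 1 called 50 of the 59, 20 of them alone, whereas the other 3 libraries called 24 to 32 each. That library called 79.4% of all regions and was the only caller of 17.2% of them. The single-group counts moved with the libraries used. Without labelled Hira KO replicate 2, 23 regions were called in the remaining labelled Hira KO library and in neither labelled WT library, and leaving out labelled Hira KO replicate 1 gave 6 and labelled WT replicate 1 gave 5. On the labelled WT side, leaving out labelled WT replicate 2 gave 5 regions and labelled Hira KO replicate 1 gave 4.

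At least 1 start site was open in every library at 8 of the 9 genes whose starts are in the RefSeq table used here, the exception being Tnfrsf17. A further start of Eaf2 (chr16:36808705) had no region over it. Another start of Eaf2 (chr16:36828259) lay under a region called in all 4 libraries (chr16:36827713-36829110), which also reaches Iqcb1. That region had fold enrichments of 80.8 and 33.5 for the labelled WT pair, against 67.1 and 30.5 for the labelled Hira KO pair. A further start of Fkbp11 (chr15:98727627) was covered in labelled Hira KO replicate 1 alone. The start listed for Prdm1 (chr10:44458748) lies inside the annotated gene body. At the first start of Eaf2 the region at chr16:36874517-36875969 (GRCm38) had fold enrichments of 203 and 124 for the labelled WT pair, against 187 and 137 for the labelled Hira KO pair, and it also covers the edge of Golgb1. At Creld2 the region at chr15:88818902-88820301, which also reaches Alg12, had 151 and 111 against 136 and 126. At Derl3 the region at chr10:75892813-75893804 had 98.1 and 86.0 against 112 and 81.3. These 3 starts stood highest of the set, and replicate 1 was above replicate 2 in each group.

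The remaining starts stood lower. The start of Xbp1 (chr11:5520515-5522413) had 77.4 and 44.3 against 64.8 and 58.3, and the start of Prdm1 (chr10:44458364-44459468) had 54.6 and 46.6 against 58.5 and 35.0. At Sdc1 (chr12:8770896-8772217) the values were 12.9 and 8.21 against 16.1 and 4.12, and at Fkbp11 (chr15:98727926-98728369) 7.70 and 4.27 against 7.46 and 5.15. The groups overlapped at all 4. Prdm1, with the lowest mean TPM of the 9 tested genes, thus had an open start in libraries of both labels. Of the starts called throughout, that of Fkbp11 had the lowest enrichment in 3 of the 4 libraries, and that of Sdc1 in labelled Hira KO replicate 2.

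**Figure D4:**
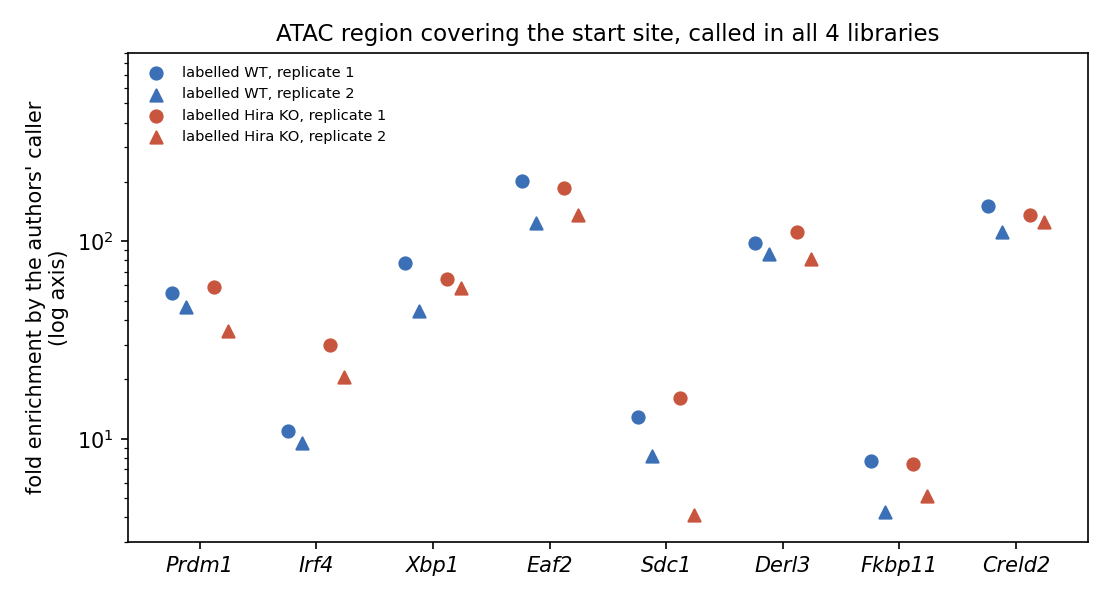
Fold enrichment by the authors' caller (log axis) of the ATAC region covering the start site, for the 8 genes where it was called in all 4 libraries. For Eaf2, the start with the higher values is shown. Circles are replicate 1 and triangles replicate 2. Irf4 is the gene at which both labelled Hira KO values (29.8 and 20.6) lie above both labelled WT values (11.0 and 9.52). The share of all start regions with such an order was not counted.

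At Irf4 the region over the start (chr13:30748925-30749566) had fold enrichments of 11.0 and 9.52 for the labelled WT pair, against 29.8 and 20.6 for the labelled Hira KO pair. Of the starts called throughout, this was the one at which the groups did not overlap. The share of all start regions with such an order was not counted, so the order cannot be called particular to Irf4. The values, from separate lists of unknown depth, were not tested against each other. A second region at the 3′ end of the gene, chr13:30766894-30767256, was called in the labelled Hira KO pair only, at 5.83 and 4.80, and 3 further regions inside the gene were called in labelled Hira KO replicate 1 alone. The promoters of Irf4 and Prdm1 are shown because these lineage-setting genes had higher RNA values in labelled Hira KO and an open start. They are the 250 bases before each start, 5′ to 3′ in the direction of the gene (plus strand at chr13:30748983-30749232 for Irf4, minus strand at chr10:44458749-44458998 for Prdm1), with no capitals because none of the 5 motifs was found:
Irf4: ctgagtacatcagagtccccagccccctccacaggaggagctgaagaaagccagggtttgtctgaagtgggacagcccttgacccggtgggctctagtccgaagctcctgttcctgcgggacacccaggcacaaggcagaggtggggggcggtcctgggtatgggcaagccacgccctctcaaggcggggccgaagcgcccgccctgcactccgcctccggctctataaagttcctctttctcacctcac
Prdm1: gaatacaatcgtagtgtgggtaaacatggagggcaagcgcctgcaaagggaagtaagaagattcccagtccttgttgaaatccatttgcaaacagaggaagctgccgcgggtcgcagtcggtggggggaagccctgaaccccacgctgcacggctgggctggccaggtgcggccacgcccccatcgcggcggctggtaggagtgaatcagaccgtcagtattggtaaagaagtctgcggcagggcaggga
G and C made up 63.6% and 59.2% of these bases, against a median of 52.4% over all windows.

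At Prdm1 12 regions were found, 4 of them in all libraries, among them one upstream, just outside the 5′ edge of the annotated body (chr10:44529225-44529981), with fold enrichments of 56.6 and 41.4 for the labelled WT pair, against 51.5 and 43.9 for the labelled Hira KO pair. An intragenic region at chr10:44448106-44448457, downstream of the start, was called in the labelled Hira KO pair only, at 4.20 and 6.52. The third region of that kind lay beside Mzb1, inside the neighbouring gene Prob1, at 3.50 and 4.12, although Mzb1 RNA stood lower in labelled Hira KO. The single region of the labelled WT pair lay within Derl3 (chr10:75893976-75894392), at 3.85 and 3.94, although Derl3 RNA stood higher in labelled Hira KO. At least 1 region of the labelled Hira KO pair only was thus found at 3 of the 10 genes, against 23.4% of tested genes with any region nearby, and at least 1 of the labelled WT pair only at 1 of the 10, against 17.7%. These shares are near the background.

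Tnfrsf17 was the gene with the least evidence of an open start. A peak over its start (chr16:11313617-11313873) was called in labelled Hira KO replicate 1 only, at 2.80. An intragenic region at chr16:11317322-11317790 was called at 4.43 in labelled WT replicate 1 and at 13.5 and 5.49 in labelled Hira KO, and not in labelled WT replicate 2.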

How the data were processed

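RNA-seq and ATAC-seq of sorted LSK cells were analysed from the deposited files; titles gave the groups and replicate numbers. Per the labels' protocols, the RNA libraries were made with the Ovation system of NuGEN and Nextera XT. Tools listed in the submitters' processing notes, with no role, are STAR 2.5.3a, RSEM 1.3.0, HTSeq, DESeq2, bedtools, MACS2 2.1.1, Bowtie2 2.2.9 and Trim Galore 0.4.5, on GRCm38. The expected counts the authors deposited are RSEM-style estimates per gene without normalization, and their deposited TPM values are per length and library, per the file headers. Peak lists give the authors' fold enrichment (a ratio) and -log10 p-values and q-values per library. No source used here says how the transposase offset was treated.

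Symbols were found for 45143 of the 45706 gene IDs. Rounded expected counts entered edgeR 4.0.16 (R 4.3.3; TMM, filterByExpr, robust quasi-likelihood F test, genotype only, Benjamini-Hochberg over 16258 genes, called below 0.05). SEs and 95% intervals come from the F statistic. A CPM of 1 equals 16.6 to 19.3 counts, so genes near that level are the least precise. The fit was tested on simulated data, with changes set in genes of moderate or high level. It recovered 0 of 50 genes changed 1.5-fold, 9 of 50 at 2-fold, 48 of 50 at 4-fold and 49 of 50 at 8-fold. Of 15574 unchanged genes it called 16. A gene of such a level that was not called may therefore still differ 2-fold. Prdm1, Eaf2, Derl3 and Mzb1 lay below the level at which changes were set, so these shares do not apply to them. Their recovery was not tested. Alternatives were DESeq2 1.42.0, limma 3.58.1 (trend, robust) on log2(TPM + 1) and log2(TPM + 0.1), other scalings and filters, the replicate number as a block and leaving out each library. Peaks of one list with the same interval were counted as 1, mitochondrial peaks were left out, and gene bodies came from RefSeq (GRCm38.p6), which gave a start site for 9 of the 10 genes (not for Mzb1). The members and lists were chosen with earlier results of these data known. All members were to be named, and of each list the genes past the threshold or otherwise at most the 3 of highest TPM. Ern1, Hspa5, Siglech, Iglc3 and Kit were named after their values were seen.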

Additional observations from a re-analysis of the deposited data

How the results depend on the processing

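Among the alternative values of the 9 members' log2 fold changes, 87 kept their direction and side of the threshold, 19 kept their direction and passed it, and 2 turned, both of Xbp1. Xbp1 ran from -0.12 (without labelled WT replicate 2) to 0.48 (without labelled WT replicate 1) with 1 library left out, and was -0.08 without labelled Hira KO replicate 2. edgeR called 0 members higher and 0 lower. The counts were 3 and 2 without a low-count filter, 3 and 2 in DESeq2, 0 and 1 in limma on either TPM scale, and 0 to 2 and 0 to 2 with 1 library left out. Over all genes, 214 were called higher and 78 lower, against 1206 and 1017 without the filter, 923 and 575 in DESeq2, 392 and 262 in limma on log2(TPM + 1), 376 and 246 on log2(TPM + 0.1), and 1 to 1657 and 1 to 1888 with 1 library left out. With the replicate number as a block, 1 member (Prdm1, adjusted p = 0.0433) and 368 genes in all were called higher and 169 lower. The numbers are shared names only: with 2 pairs, same-numbered deviations correlated at 0.065 across genes. Near the members, 1 region was called in the labelled WT pair only and 3 in the labelled Hira KO pair only. The counts were 4 and 6 within 50 kb, and 1 to 5 and 4 to 23 with 1 library left out, 23 without labelled Hira KO replicate 2. The cause of these moves was not tested, except that leaving out a library leaves a lone sample assumed to vary like the other group. Genes near 1 CPM rest on under 20 counts a library, which limits Derl3, Prdm1 and Eaf2.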
